A study of Mus musculus with 4 samples.

Results

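The genes described here are the core of the activin and Nodal signalling machinery, the receptors *Acvr1b*, *Acvr1c*, *Acvr2a* and *Acvr2b*, the transducers *Smad2*, *Smad3* and *Smad4*, and the activin subunits *Inhba* and *Inhbb*. They were chosen by gene symbol, and all 9 were found among 24347 gene rows. The comparison asks whether this machinery differs between embryoid bodies (EBs) with and without the promoter of *Gm11549*, the gene of the micropeptide NEMEP.

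The RNA came from EBs, clusters of differentiating cells grown from mouse embryonic stem cells (mESCs), at day 3 after withdrawal of LIF in serum medium. The strain is 129/Ola. The WT group holds 2 samples, and the promoter KO group holds 2 samples from mESCs in which CRISPR/Cas9 had removed the *Gm11549* promoter, derived from sorted single cells and picked by genotyping. The study describes the samples of a genotype as biologically independent, but not whether promoter KO 1 and promoter KO 2 come from different clones, and p-values measure the spread between these samples only.

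Activin and Nodal are secreted dimers of the TGF-beta family. They bring together type II receptors (ACVR2A or ACVR2B) and type I receptors (ACVR1B, also called ALK4, or ACVR1C, also called ALK7), and the type I receptor phosphorylates SMAD2 and SMAD3, which enter the nucleus with SMAD4 and act with DNA-binding partners such as FOXH1. In the gastrulating embryo and in EBs this signal is known for inducing mesendoderm, the precursor of mesoderm and definitive endoderm.

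The deposited values were taken as FPKM (fragments scaled by transcript length and library depth), so levels can be set beside each other across genes. The values that single fragments leave at the low end gave depths near 24800000 (WT 1), 21900000 (WT 2), 21600000 (promoter KO 1) and 20000000 (promoter KO 2) fragments. Differences were tested with limma on log2(FPKM + 1) in the 11941 genes that reached 1 FPKM in 2 or more of the 4 samples. Fold changes are on this scale, which understates the change of genes with low values, and a gene was called at a Benjamini-Hochberg adjusted p under 0.05.

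The targeted gene checked the labels. *Gm11549* was at 0.750 FPKM (WT 1), 0.522 FPKM (WT 2), 0 (promoter KO 1) and 0.0659 FPKM (promoter KO 2). Each promoter KO value was under each WT value, and the gene was under the filter and was not tested.

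Of the 9 members, 6 passed the filter and 3 (*Acvr1c*, *Inhba* and *Inhbb*) did not. None of the 6 tested members was called in limma, 0 in either direction, where 3.58% of all tested genes were called (1.89% lower and 1.68% higher in promoter KO). At an unadjusted p under 0.05, 2 of the 6 were lower (*Smad3* and *Acvr2b*) and 0 were higher, against 15.6% and 15% of all tested genes. In 11 alternative fits, *Smad3* was under this unadjusted level in 11, *Acvr2b* in 5 and *Smad4* in 2. The 2 promoter KO values were under the 2 WT values in 3 of the 6 (*Smad3*, *Acvr2b* and *Smad4*) and above them in 0, against 32.4% and 32.9% of all tested genes. The tested members had a median log2 fold change of −0.18, beside 0.004 over all tested genes. A p that misses the threshold does not show that levels were equal, so the 95% confidence interval of each difference is given below.

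**Figure D1:**
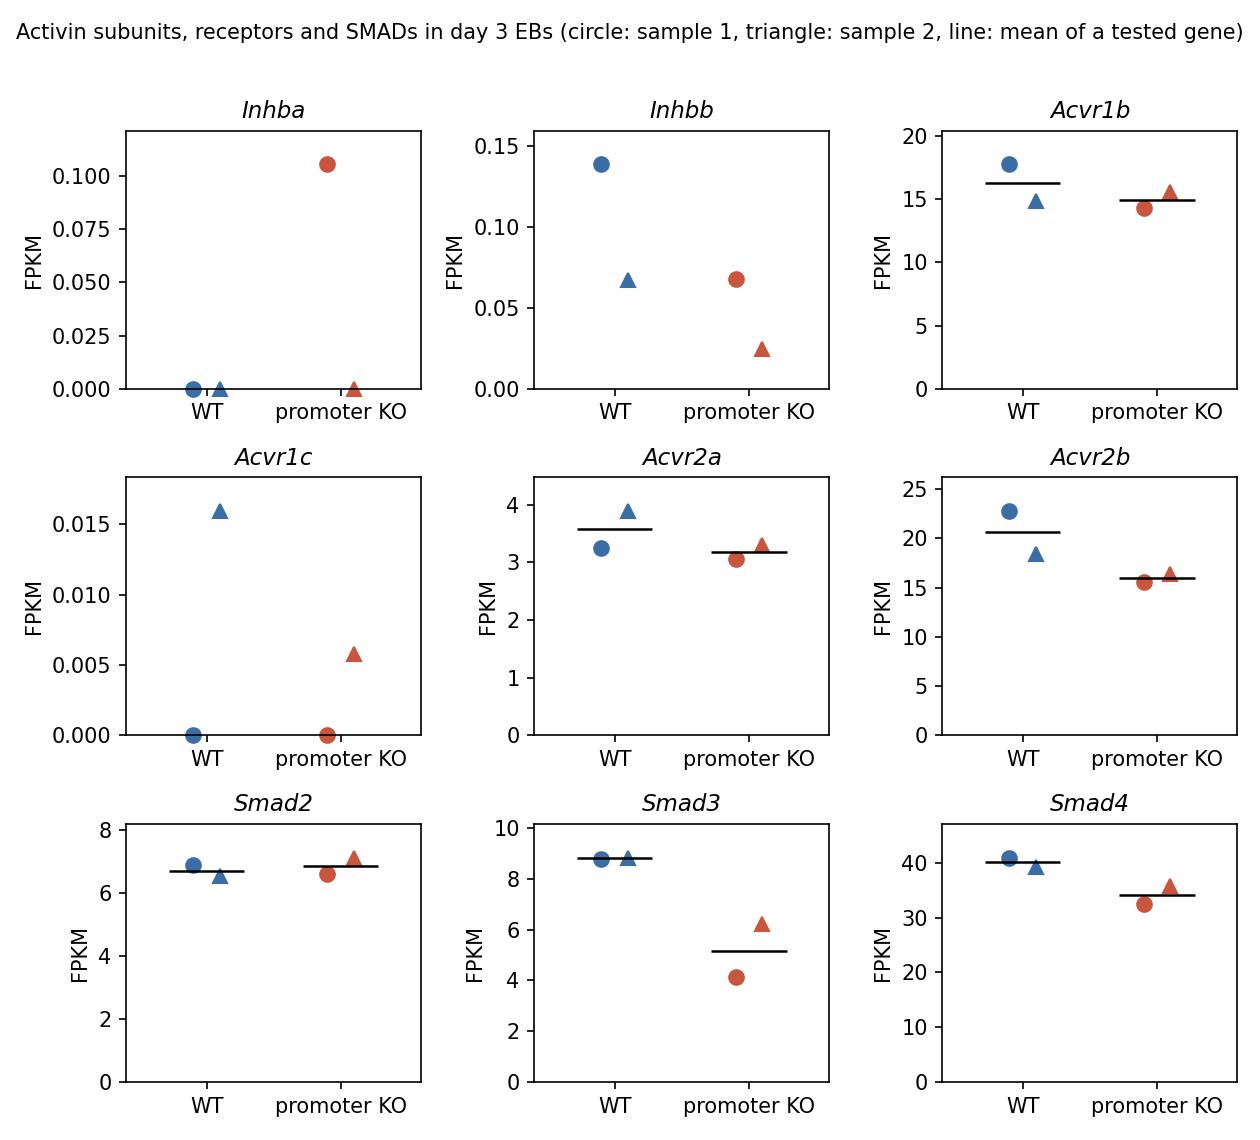
FPKM of each of the 9 members in the 4 samples, with WT in blue and promoter KO in red, circles for sample 1, triangles for sample 2, and a line at the mean of each genotype for the 6 tested genes. Each panel has its own axis from 0, and *Smad3* is at 8.80 and 8.84 FPKM (WT) against 4.13 and 6.22 FPKM (promoter KO).

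Transcripts of the activin subunits were close to the detection limit. *Inhba*, which encodes the subunit of activin A, was listed at 0 (WT 1), 0 (WT 2), 0.105 FPKM (promoter KO 1) and 0 (promoter KO 2). *Inhbb*, which encodes the subunit of activin B, was at 0.138 FPKM (WT 1), 0.0668 FPKM (WT 2), 0.0676 FPKM (promoter KO 1) and 0.0242 FPKM (promoter KO 2). No sample reached 1 FPKM of either subunit, and the genotypes overlapped. The *Inhbb* values correspond to about 13.9, 5.94, 5.93 and 1.97 fragments at the estimated depths. In promoter KO 1 the *Inhba* value corresponds to between 3.03 and 14.1 fragments, depending on which annotated transcript is assumed. Both were under the filter, and in the fit without a filter neither was called in limma or had an unadjusted p under 0.05.

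Of the type I receptors among the members, *Acvr1b* was well above the detection limit and *Acvr1c* was near it. *Acvr1b* was at 17.8 FPKM (WT 1), 14.9 FPKM (WT 2), 14.4 FPKM (promoter KO 1) and 15.6 FPKM (promoter KO 2). The promoter KO values lay around the lower WT value, and the genotypes overlapped. Its log2 fold change was −0.11 (95% confidence interval −0.42 to 0.20, adjusted p = 0.578, limma with Benjamini-Hochberg adjustment), and its sign depended on WT 1, since it was 0.01 without that sample. It was −0.23 without WT 2, −0.06 without promoter KO 1 and −0.17 without promoter KO 2. *Acvr1c* was listed at 0 (WT 1), 0.0159 FPKM (WT 2), 0 (promoter KO 1) and 0.00577 FPKM (promoter KO 2), with the values above 0 standing for about 3.13 and 1.04 fragments if the longest annotated transcript is assumed. Among 7 type I receptors of the TGF-beta family, *Acvr1b* accounted for 37.1% and 34.5% of the summed FPKM (WT), and for 36.0% and 33.2% (promoter KO).

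The type II receptors bind the ligand first. *Acvr2b* was at 22.8 FPKM (WT 1), 18.4 FPKM (WT 2), 15.6 FPKM (promoter KO 1) and 16.4 FPKM (promoter KO 2). Both promoter KO samples were lower than both WT samples. The log2 fold change was −0.34 (95% confidence interval −0.66 to −0.02, adjusted p = 0.147, limma with Benjamini-Hochberg adjustment), and it was −0.19 without WT 1. *Acvr2a* was at 3.25 FPKM (WT 1), 3.89 FPKM (WT 2), 3.06 FPKM (promoter KO 1) and 3.29 FPKM (promoter KO 2). The WT 1 value lay between the promoter KO values, so the genotypes overlapped. Its log2 fold change was −0.13 (95% confidence interval −0.49 to 0.24, adjusted p = 0.589, limma with Benjamini-Hochberg adjustment), and it was −0.23 without WT 1 and −0.03 without WT 2. *Acvr2b* was the more abundant of the pair in every sample, and made up 70.2% and 61.8% of the summed FPKM of 5 type II receptors in WT and 64.1% and 64.5% in promoter KO.

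Among the SMADs, *Smad3* showed the largest difference of any tested member. *Smad3*, which binds DNA itself, was at 8.80 FPKM (WT 1), 8.84 FPKM (WT 2), 4.13 FPKM (promoter KO 1) and 6.22 FPKM (promoter KO 2). Both promoter KO samples were lower than both WT samples, and promoter KO 1 was the lowest. Mean levels were 8.82 ± 0.0290 FPKM (WT) and 5.18 ± 1.48 FPKM (promoter KO), as mean and SD of 2 samples. The log2 fold change was −0.69 (95% confidence interval −1.15 to −0.23, adjusted p = 0.0801, limma with Benjamini-Hochberg adjustment), which did not pass the threshold. It was −0.44 without promoter KO 1 and −0.94 without promoter KO 2, with adjusted p-values of 0.276 and 0.0520 in limma. Of all tested genes, 971 (8.13%) had a larger absolute fold change.

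*Smad2*, whose main product does not bind DNA directly, was at 6.87 FPKM (WT 1), 6.53 FPKM (WT 2), 6.58 FPKM (promoter KO 1) and 7.12 FPKM (promoter KO 2). The genotypes overlapped. Its log2 fold change was 0.03 (95% confidence interval −0.28 to 0.33, adjusted p = 0.904, limma with Benjamini-Hochberg adjustment), with a sign that turned without WT 2 (−0.005) and without promoter KO 2 (−0.02). *Smad4*, the partner shared with the BMP branch, was at 41.0 FPKM (WT 1), 39.3 FPKM (WT 2), 32.5 FPKM (promoter KO 1) and 35.7 FPKM (promoter KO 2). Both promoter KO samples were lower than both WT samples. The log2 fold change was −0.23 (95% confidence interval −0.46 to 0.001, adjusted p = 0.165, limma with Benjamini-Hochberg adjustment).

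**Figure D2:**
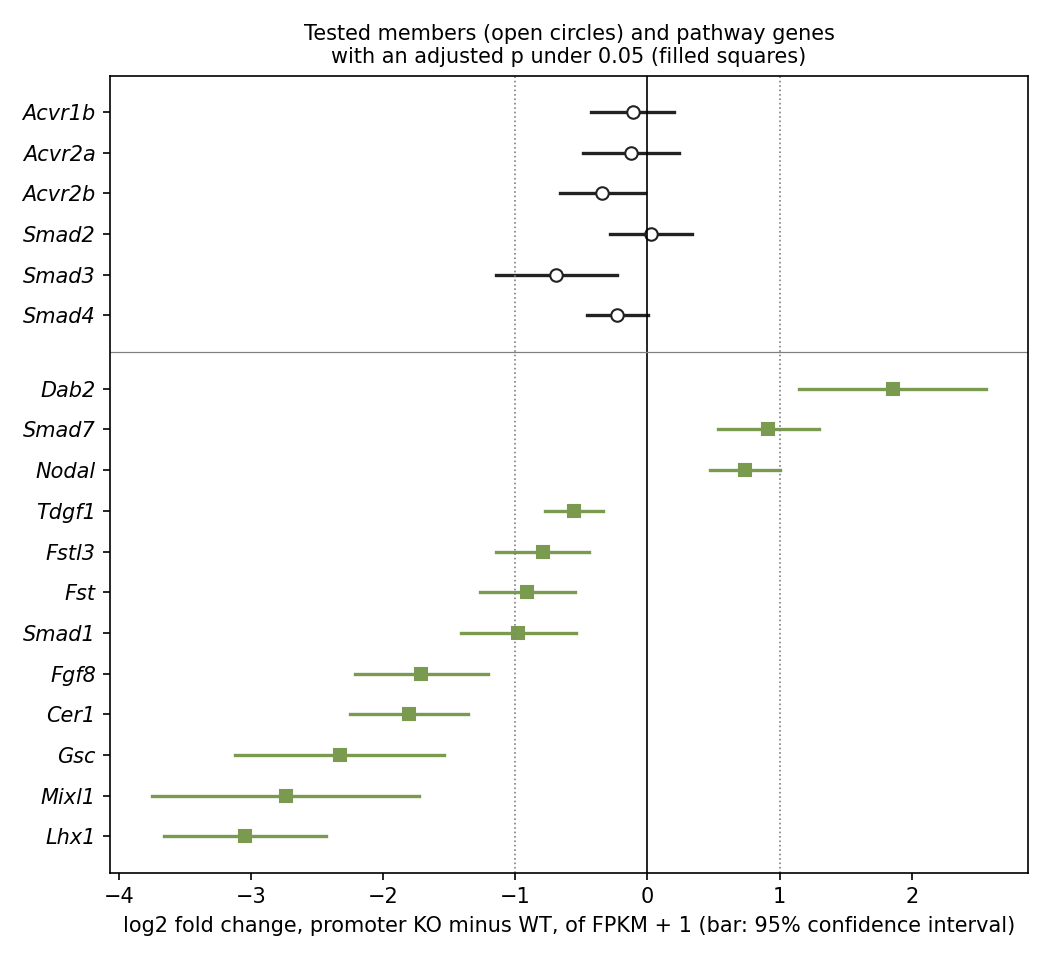
Log2 fold change of FPKM + 1, promoter KO minus WT, with its 95% confidence interval, for the 6 tested members (open circles) and the 12 called pathway genes (filled squares). Dotted lines mark −1 and 1, and the interval of *Smad3*, from −1.15 to −0.23, is the member interval that crosses −1.

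The interval lay between −1 and 1 in 5 of the 6 tested members, and in 87.8% of all tested genes. The exception was *Smad3*. In the order of WT means, *Smad4* was highest, followed by *Acvr2b*, *Acvr1b*, *Smad3*, *Smad2* and *Acvr2a*, with *Inhbb*, *Acvr1c* and *Inhba* near or at 0. *Acvr2b* was above *Acvr1b* in each of the 4 samples, although their values overlapped between the promoter KO samples. Differences between members were not tested apart from the ratios below.

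The order of *Smad2* and *Smad3* was not the same in the genotypes. The ratio of *Smad2* to *Smad3* FPKM was 0.781 (WT 1), 0.739 (WT 2), 1.59 (promoter KO 1) and 1.14 (promoter KO 2). *Smad3* was thus the more abundant transcript in both WT samples and *Smad2* in both promoter KO samples. On the log2 scale the ratio was −0.40 ± 0.06 in WT and 0.43 ± 0.34 in promoter KO (SD, n = 2 each), a difference of 0.83 (two-sided exact permutation test, p = 0.333, adjusted p = 0.667 over 2 ratios). With 2 samples against 2, 0.333 is the smallest p this test can give, so no ratio could pass 0.05. The log2 ratio of *Acvr2a* to *Acvr2b* overlapped between the genotypes, at −2.81 and −2.24 in WT and −2.35 and −2.32 in promoter KO, and the ratios with *Acvr1c* and *Inhba* were not computed because of values listed at 0. A ratio within a sample does not depend on scaling between samples.

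The genes whose pattern over the 4 samples was closest to that of *Smad3*, by Euclidean distance of log2(FPKM + 1) centred on each gene's mean, were *Stat5b* (distance 0.0224), *Fam163b* (0.0589) and *Obsl1* (0.0594). *Stat5b* was at 6.81 and 6.83 FPKM (WT) against 3.03 and 4.65 FPKM (promoter KO). None of the 3 was called.

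**Figure D3:**
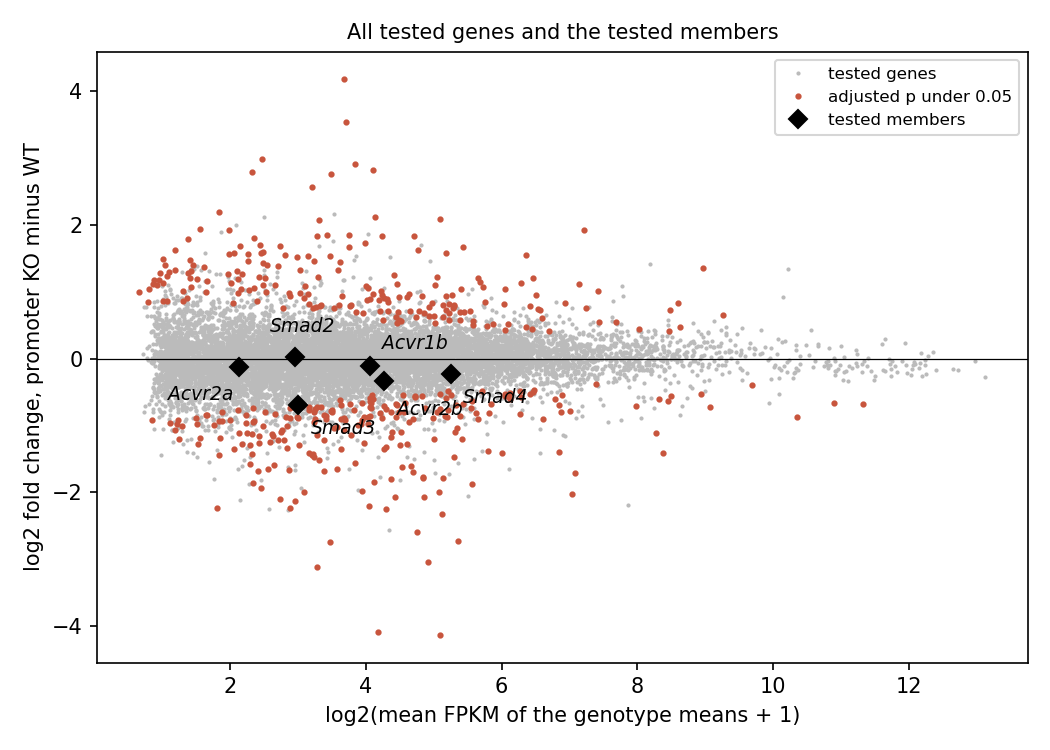
Log2 fold change, promoter KO minus WT, of the 11941 tested genes against log2 of the mean FPKM + 1, with called genes in red and the 6 tested members as black diamonds. The members lie between −0.69 (*Smad3*) and 0.03 (*Smad2*), inside the cloud of genes that were not called.

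The promoters of *Smad3* and *Acvr2b*, the members with the lowest p-values, are shown because both transcripts were lower in promoter KO. RefSeq (GRCm38.p6) held 300-base promoter windows for 7 of the 9 members. The window of *Smad3* is chr9:63757945-63758244 on the minus strand, with 25 CpG dinucleotides, and that of *Acvr2b* is chr9:119401928-119402227 on the plus strand, with 27. Both genes lie on chromosome 9, *Smad3* from 63646767 to 63757994 and *Acvr2b* from 119402118 to 119434995 (GENCODE M21, GRCm38), so each window spans the annotated start of its gene. Capitals mark the SMAD-binding motifs CAGAC and GGCGC in either orientation (GTCTG and GCGCC), which do not overlap each other in these windows.
Smad3: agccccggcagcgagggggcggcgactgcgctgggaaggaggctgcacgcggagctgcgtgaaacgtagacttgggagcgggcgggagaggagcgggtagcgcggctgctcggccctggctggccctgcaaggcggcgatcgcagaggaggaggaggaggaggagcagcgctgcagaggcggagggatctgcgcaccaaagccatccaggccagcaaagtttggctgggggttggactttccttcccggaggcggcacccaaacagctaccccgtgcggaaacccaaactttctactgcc
Acvr2b: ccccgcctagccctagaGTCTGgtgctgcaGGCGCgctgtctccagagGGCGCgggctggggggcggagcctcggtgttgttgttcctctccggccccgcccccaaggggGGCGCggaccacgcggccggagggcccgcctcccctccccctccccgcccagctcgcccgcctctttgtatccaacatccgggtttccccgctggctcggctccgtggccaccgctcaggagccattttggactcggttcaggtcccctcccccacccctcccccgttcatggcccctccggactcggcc
The *Smad3* window held 0 matches to either motif, and that of *Acvr2b* held 1 to CAGAC and 3 to GGCGC. Of 32851 promoter windows of this length, 49.6% held CAGAC and 36.9% held GGCGC on either strand. A match is a description of the letters and shows no binding, and the absence of one concerns this window only. The CpG count was 51 for *Acvr1b* and 54 for *Acvr2a*, and among the members near 0 it was 7 for *Inhba*, 23 for *Inhbb* and 39 and 2 for the 2 windows of *Acvr1c*, beside a median of 7 over all windows.

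Of 78 other genes of the pathway, listed by role, 68 were tested. Of these 9 were called lower and 3 were called higher in promoter KO (limma with Benjamini-Hochberg adjustment), against 1.89% and 1.68% of all tested genes. At an unadjusted p under 0.05, 23 were lower and 9 higher, against 15.6% and 15% of all tested genes. The 78 genes include transcriptional targets of the pathway as well as its components. Of the 9 called lower, *Gsc*, *Mixl1*, *Lhx1* and *Fgf8* were listed in the pathway only as targets. All 12 calls were lost without WT 2 and without promoter KO 1, where limma called 0 genes of any kind (1875 and 2009 at an unadjusted p under 0.05). Without WT 1, 5 pathway genes were called lower and 2 higher, and without promoter KO 2, 11 and 3. In limma without the trend, 2 of the 12 calls held, those of *Cer1* and *Lhx1*, and without a filter none did. Below, each called gene is given with the number of alternative fits in which its call held.

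Of 5 tested genes among other activin and inhibin subunits and soluble inhibitors, 2 were called lower (*Fst* and *Fstl3*) and 0 higher, against 1.89% and 1.68% of all tested genes, with a median log2 fold change of −0.59 beside 0.004 over all tested genes. *Fst*, which encodes follistatin, an extracellular protein that binds activin, was at 138 FPKM (WT 1), 116 FPKM (WT 2), 58.8 FPKM (promoter KO 1) and 76.1 FPKM (promoter KO 2). It fell by 0.91 on the log2 scale (standard error 0.15, limma, Benjamini-Hochberg adjusted p = 0.0422), with both promoter KO samples below both WT samples. *Fstl3*, a related inhibitor, was at 3.73 and 3.59 FPKM (WT) against 1.59 and 1.80 FPKM (promoter KO), and fell by 0.79 (standard error 0.14, limma, Benjamini-Hochberg adjusted p = 0.0482). The call of *Fst* held in 6 of 11 alternative fits and that of *Fstl3* in 1 of 10.

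Among the other ligands of the SMAD2/3 branch, 5 were tested. Of these 1 was called higher and 0 lower, against 1.68% and 1.89% of all tested genes. Their median log2 fold change was 0.37. *Nodal* was at 75.1 FPKM (WT 1), 62.3 FPKM (WT 2), 117 FPKM (promoter KO 1) and 112 FPKM (promoter KO 2). It rose by 0.74 (standard error 0.11, limma, Benjamini-Hochberg adjusted p = 0.0389) and was the most abundant ligand transcript of the list, and its call held in 6 of 11 alternative fits. *Mstn* was listed at 0 in every sample. Of 5 Nodal coreceptors and extracellular antagonists, 2 were called lower and 0 higher, against 1.89% and 1.68% of all tested genes. *Tdgf1*, the coreceptor Cripto, was at 415 and 442 FPKM (WT) against 273 and 310 FPKM (promoter KO) and fell by 0.55 (standard error 0.09, limma, Benjamini-Hochberg adjusted p = 0.0422). *Cer1*, a secreted Nodal antagonist, was at 36.6 and 26.1 FPKM (WT) against 7.42 and 8.93 FPKM (promoter KO) and fell by 1.80 (standard error 0.18, limma, Benjamini-Hochberg adjusted p = 0.0233). The call of *Tdgf1* held in 6 of 11 alternative fits and that of *Cer1* in 8.

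No receptor outside the members was called. The 3 other type I receptors tested had a median log2 fold change of 0.03, and the most abundant, *Bmpr1a*, was at 16.5 and 14.0 FPKM (WT) against 11.8 and 15.6 FPKM (promoter KO). The 3 other type II receptors tested had a median of 0.02, and *Amhr2*, the most abundant by mean, was at 2.77 and 4.26 FPKM (WT) against 2.02 and 1.43 FPKM (promoter KO). The 4 accessory receptors and pseudoreceptors had a median of −0.25, and *Eng* was at 6.69 and 7.22 FPKM (WT) against 17.3 and 9.14 FPKM (promoter KO). At an unadjusted p under 0.05, limma gave 0 of the type I receptors, 1 type II receptor (lower) and 1 accessory receptor (higher).

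Downstream of the receptors, the list of BMP-branch and inhibitory SMADs held 1 call in each direction. Over all tested genes, 1.89% were called lower and 1.68% higher. *Smad1*, which carries BMP signals, was at 17.2 and 24.4 FPKM (WT) against 9.43 and 10.5 FPKM (promoter KO) and fell by 0.98 (standard error 0.18, limma, Benjamini-Hochberg adjusted p = 0.0482). *Smad7*, an inhibitor of the type I receptors that is itself induced by the pathway, was at 15.5 and 13.6 FPKM (WT) against 32.5 and 24.5 FPKM (promoter KO) and rose by 0.91 (standard error 0.16, limma, Benjamini-Hochberg adjusted p = 0.0460). The other 2 tested genes of this list were not called. Of these *Smad6*, the other inhibitory SMAD, named after its values were seen, was at 5.89 and 9.06 FPKM (WT) against 1.52 and 2.91 FPKM (promoter KO), with a log2 fold change of −1.41 (limma, Benjamini-Hochberg adjusted p = 0.0523). The call of *Smad1* held in 3 of 11 alternative fits and that of *Smad7* in 4.

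Of 11 nuclear partners and cofactors of SMAD2/3, 0 were called in limma, with 2 lower and 2 higher at an unadjusted p under 0.05. The most abundant, *Drap1*, was at 186 and 206 FPKM (WT) against 148 and 145 FPKM (promoter KO) (limma, Benjamini-Hochberg adjusted p = 0.0541). Of 18 adaptors, ubiquitin ligases and phosphatases, 1 was called higher and 0 lower, against 1.68% and 1.89% of all tested genes. Their median log2 fold change was −0.02. The most abundant, *Fkbp1a*, which binds type I receptors, was at 371 and 365 FPKM (WT) against 394 and 409 FPKM (promoter KO). The called gene, the endocytic adaptor *Dab2*, was at 4.97 and 2.48 FPKM (WT) against 13.0 and 18.4 FPKM (promoter KO) and rose by 1.86 (standard error 0.29, limma, Benjamini-Hochberg adjusted p = 0.0408), a call that held in 6 of 11 alternative fits. *Dab2* also belongs to the list of extraembryonic endoderm markers described below.

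Transcriptional targets of the pathway did not move together. Of 18 tested targets, 6 were called lower and 2 higher, against 1.89% and 1.68% of all tested genes. Their median log2 fold change was −0.80. Besides *Tdgf1* and *Cer1*, the genes called lower were *Gsc* (−2.33), *Mixl1* (−2.74), *Lhx1* (−3.04) and *Fgf8* (−1.71), and those called higher were *Nodal* and *Smad7*. The call of *Lhx1* held in 8 of 11 alternative fits, and those of *Gsc*, *Mixl1* and *Fgf8* in 6 each. Of these 18 targets, 6 are also on the list of 8 mesendoderm markers below, 3 of them called lower. The 12 tested targets outside that list, a division made after the values were seen, had a median log2 fold change of −0.26, with 3 called lower and 2 higher. The summed level of all targets was 1691 FPKM (WT 1), 1923 FPKM (WT 2), 904 FPKM (promoter KO 1) and 1086 FPKM (promoter KO 2). The 6 shared with the mesendoderm list summed to 720 and 842 FPKM (WT) against 143 and 300 FPKM (promoter KO). The other 13 listed targets summed to 972 and 1081 FPKM (WT) against 761 and 786 FPKM (promoter KO).

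The labels call the samples mesendoderm cells, and the markers of mesendoderm and primitive streak were present in all of them. This list of 8 genes was lower in promoter KO in 8 of 8, with 5 called. Over all tested genes, 49.5% had a lower estimate, 1.89% were called lower and 1.68% were called higher. The mesendoderm list summed to 777 and 1002 FPKM (WT) against 148 and 314 FPKM (promoter KO), with *T* the most abundant. The 14 extraembryonic endoderm markers summed to 102 and 144 FPKM (WT) against 223 and 287 FPKM (promoter KO), with 8 called higher and 1 lower (9 and 3 at an unadjusted p under 0.05 in limma) and with *Sparc* the most abundant. The 3 lower at that level were *Gata6*, which was the call, *Sox17* and *Pdgfra*. Of the naive pluripotency markers, 7 of 8 were tested and all 7 had a higher estimate with 0 called (4 higher at an unadjusted p under 0.05 in limma). They summed to 50.3 and 107 FPKM (WT) against 210 and 118 FPKM (promoter KO), and *Klf2* was the most abundant. No gene of these 3 lists was at 0 in every sample.

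Of 5 primed epiblast markers, 1 was called higher and 0 lower, and the sums were 1188 and 927 FPKM (WT) against 1089 and 1197 FPKM (promoter KO), with *Pim2* the most abundant. The trophoblast list, which shares *Eomes* with the mesendoderm list, had 4 genes tested and 1 called lower, with sums of 182 and 221 FPKM (WT) against 64.0 and 108 FPKM (promoter KO) and with *Eomes* the most abundant. In the neuroectoderm list 1 of 6 genes, *Nes*, was tested and was not called in limma (lower at an unadjusted p under 0.05), and the sums were 23.0 and 25.1 FPKM (WT) against 9.09 and 16.4 FPKM (promoter KO). Most of this sum was *Nes*, at 21.6 and 24.5 FPKM (WT) against 6.94 and 14.7 FPKM (promoter KO). *Sox1*, *Pax6*, *Zic1* and *Neurog2*, named after their values were seen, were under 1 FPKM in every sample and not tested, and in all 4 both promoter KO values were above both WT values. These are bulk samples, in which fewer cells of a type and less RNA per cell cannot be told apart. The part of these marker lists in the values of the members and of the other pathway genes was not tested.

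**Figure D4:**
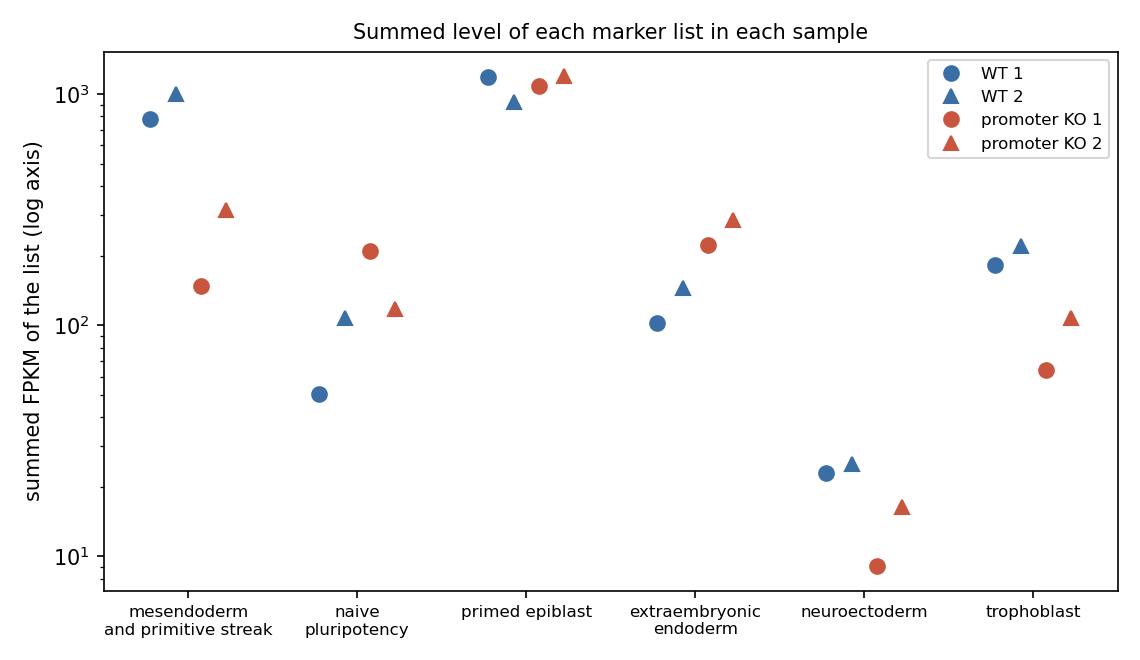
Summed FPKM of each of 6 marker lists in the 4 samples, on a log axis, with WT in blue and promoter KO in red. Mesendoderm sums are 777 and 1002 FPKM (WT) against 148 and 314 FPKM (promoter KO), and extraembryonic endoderm sums are 102 and 144 FPKM against 223 and 287 FPKM.

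Reads of a few genes could be shared with others. On GENCODE M21 (GRCm38), exons of *Acvr2a* overlapped the antisense gene *Orc4* and exons of *Acvr1c* the antisense gene *Gm13544*, and no other member overlapped another gene's exons or had a near-identical copy. Among the called pathway genes, *Fst*, *Fstl3* and *Dab2* overlapped antisense genes and *Tdgf1* had 1 near-identical copy, *Tdgf1-ps1*. No source used here states whether counting was strand-specific, so reads within these antisense overlaps cannot be assigned to one gene or the other. The longest near-identical stretch of *Tdgf1* and *Tdgf1-ps1* was 512 bases, and reads within it could come from either.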

How the data were processed

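RNA-seq values of 4 samples were used, 2 WT and 2 promoter KO, grouped by the sample labels. The values the authors deposited are per gene, 1 file per sample, and name no unit; the methods give RPKM from Cufflinks and the submitters' processing notes name Cufflinks and Cuffnorm, and the values were taken as FPKM. The methods name TopHat and the processing notes HISAT2 2.1.0 and Cuffnorm, with the mm10 build (GRCm38) and a GENCODE annotation. Whether counting was strand-specific is not stated in the sources used here, and read counts were not used.

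Genes that reached 1 FPKM in 2 or more samples were tested on log2(FPKM + 1) with limma 3.58.1 in R 4.3.3 (lmFit, eBayes with trend), for genotype alone, with Benjamini-Hochberg adjustment over 11941 genes. No set test was run. The members and the gene lists were chosen with earlier results of these data known. Named genes are all members, the called genes of the pathway lists, the most abundant gene of each pathway and marker list, genes of these lists at 0 throughout, 3 genes by likeness to the member with the lowest p, *Smad6* and 7 neuroectoderm and extraembryonic endoderm markers chosen after their values were seen, and *Gm11549*.

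Depth was estimated from genes with a single annotated transcript, at an assumed fragment length of 200 bases, as the depth whose values of 1, 2 and 3 fragments held the most genes. This was chosen after a simpler estimate, the single highest peak, gave 10100000 fragments for promoter KO 2. Near-identical copies had at least 95% identity over at least 200 bases (BLAST 2.17.0). Tables and figures used Python 3.11.15, numpy 2.4.6, pandas 2.3.3 and matplotlib 3.10.9. The fit and the depth estimate were tested on simulated data.

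Alternatives were the replicate number as a block, a pseudocount of 0.1, all genes not at 0 throughout, genes averaging 5 FPKM or more, eBayes with trend off, median centring, quantile normalization, each sample left out, and ratios without or with a pseudocount.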

Additional observations from a re-analysis of the deposited data

How the results depend on the processing

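No member was called under any of the 11 alternative fits, where the lowest adjusted p was that of *Smad3* without promoter KO 2 (0.0520, range 0.0520 to 0.303, limma), and without a filter all 9 members were tested. Leaving out a sample, with the lone sample of a genotype assumed to vary like the other genotype, gave log2 fold changes from −0.23 to 0.0101 for *Acvr1b* and from −0.0225 to 0.0763 for *Smad2*, and differences in the log2 ratio of *Acvr2a* to *Acvr2b* from −0.0878 to 0.48. The other 4 tested members kept their sign in every alternative that could be fitted, and *Acvr2a* fell under the filter at a mean of 5 FPKM.

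Counts of calls depended on the setting. Over all tested genes, 226 lower and 201 higher became 0 and 0 without a filter (limma, 4059 at an unadjusted p under 0.05), 108 and 95 at a mean of 5 FPKM, 27 and 55 without the trend, and 126 and 157 with median centring, where more were higher than lower. Leaving out a sample gave from 0 to 248 lower and from 0 to 238 higher. Of the pathway genes, 9 lower and 3 higher became 0 and 0 without a filter and 2 and 0 without the trend, and from 0 to 11 and from 0 to 3 when a sample was left out. The cause was not tested.

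With the replicate number as a block (replicate block), 667 genes were lower and 535 higher, and 17 pathway genes were lower and 4 higher. Same-numbered samples share only a number, and the correlation of their deviations across genes was 0.0348.

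Median centring moved the median log2 fold change of all genes by 0.03. With 2 samples per genotype, intervals are wide, with a median half-width of 0.32 for the tested members and 0.33 for all tested genes.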
